A study of Mus musculus with 24 samples.

Results

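CD4 T cells lacking Pou2af1 were compared with CD4 T cells that carried 1 intact Pou2af1 allele and the same Cre driver. The comparison used 8 of the 24 libraries of the series, chosen by their labels: 4 knockout and 4 heterozygote libraries. All cells were CD4+ T cells sorted from the spleens of C57BL/6 mice aged 12 weeks and cultured for 2 days with antibodies against CD3 and CD28, and their polyadenylated RNA was sequenced. Knockout mice were CD4.Cre+ Pou2af1fl/fl and heterozygous mice were CD4.Cre+ Pou2af1fl/+. Both groups therefore carried the Cre transgene and at least 1 floxed allele, so the presence of Cre is shared by both. The series also holds 4 CD4 libraries from CD4.Cre- Pou2af1fl/fl mice, whose titles call them +/+. Those Cre-negative libraries entered the fit for its estimate of spread and are given below as a reference level. CD4-Cre acts from the stage at which developing T cells express CD4, so it reaches CD4 and CD8 T cells alike, and the CD8 libraries of the same genotypes serve as a second cell type. Whether a replicate number stands for an animal of its own is not said in the labels. The p-values are thus set against the variation among these libraries, which may be technical in part.

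Pou2af1 encodes a coactivator, also known as OCA-B or Bob1, that has no DNA-binding domain of its own and is recruited to octamer DNA by the factors POU2F1 and POU2F2. It is best known for its role in B cells and germinal centres, and in T cells it has been tied to the expression of cytokine genes and to memory and follicular helper cells. In resting T cells it is low and it is induced on activation.

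Gene counts ran from 12.0 to 13.9 megacounts in the knockout libraries and from 11.9 to 16.6 megacounts in the heterozygote libraries. No pair of libraries within a group matched within sampling noise. The cells carried the transcripts of CD4 T cells. Cd4 averaged 510 CPM (counts scaled to the library total after TMM normalisation) in the knockout and 476 CPM in the heterozygote, whereas Cd8a averaged 0.326 and 0.372 CPM. With Cd8b1 added, the CD8 lineage markers summed to 8.51 to 12.6 CPM in the knockout and 7.64 to 14.9 CPM in the heterozygote. The summed CPM of 9 CD4 T cell markers was 2316 to 2643 in the knockout and 2279 to 2407 in the heterozygote. B cell markers summed to 143 to 220 CPM against 147 to 165 CPM, and neutrophil markers reached at most 0.134 CPM in any of the 8 libraries. Dendritic cell markers summed to 80.4 to 105 CPM against 86.6 to 100.2 CPM. Plasma cell markers summed to 1012 to 1229 CPM against 1003 to 1167 CPM. Which cells gave these transcripts was not tested. In a principal component analysis of the 8 libraries the first component held 45.8% of the variance and separated replicates 1 and 2 from replicates 3 and 4 of both genotypes. By Xist and Y-linked transcripts, 2 of 4 heterozygote libraries and 1 of 4 knockout libraries were female. The heterozygote females were replicates 1 and 2 and the heterozygote males replicates 3 and 4, so in that group sex and replicate set (1 and 2, or 3 and 4) cannot be told apart.

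Of 12719 genes tested, 2 differed between knockout and heterozygote, which is 0.0157% of those tested. They were Pou2af1 itself, which fell, and Tmod3, which rose, 1 gene or 0.00786% in each direction. The threshold for a call was an adjusted p of 0.05 (Benjamini-Hochberg) in edgeR's quasi-likelihood test. At an unadjusted p under 0.05 there were 465 genes, or 3.66%, with 248 higher (1.95%) and 217 lower (1.71%). With the replicate number as a block these were 955 genes (7.51%), and the called genes were again 2. Across all tested genes the median log2 change was 0.01, and 6689 genes lay above 0 and 6030 below. The plot of all tested genes shows the called pair outside a band that widens towards low levels.

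**Figure D1:**
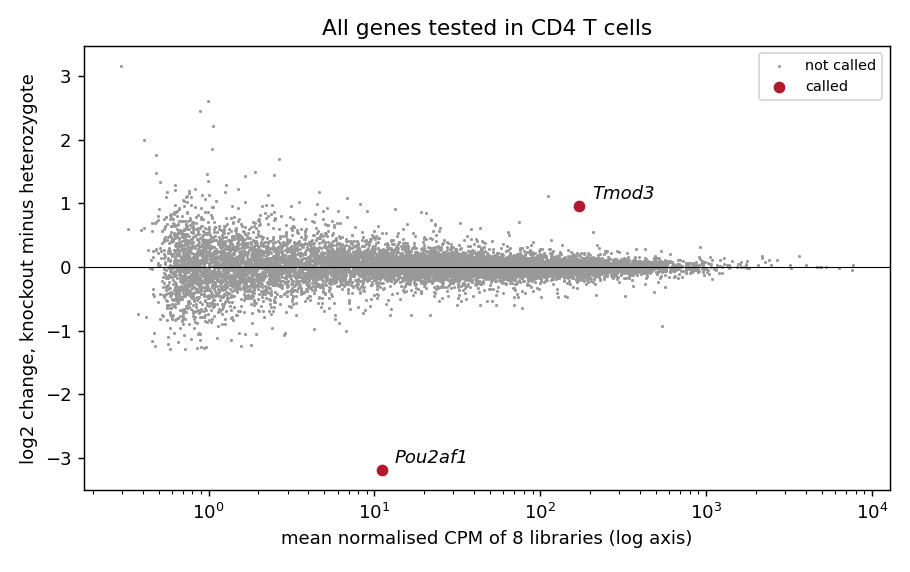
Each point is 1 of 12719 tested genes in CD4 T cells. The horizontal log axis gives the mean normalised CPM of the 8 libraries and the vertical axis the log2 change, knockout minus heterozygote. The 2 called genes, Tmod3 at 0.95 and Pou2af1 at -3.19, are in red.

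Pou2af1 (ENSMUSG00000032053.8, chr9:51213708-51240080, GRCm38) checks the genotype labels. The knockout libraries held 1.30, 1.60, 3.79 and 2.09 CPM in replicates 1 to 4, from raw counts of 18, 21, 52 and 25. The heterozygote libraries held 15.6, 17.6, 24.5 and 22.8 CPM, and the Cre-negative libraries 29.6, 28.6, 46.6 and 49.4 CPM. Every knockout library lay below every heterozygote library, and every heterozygote library below every Cre-negative one. Pou2af1 fell by 3.19 on the log2 scale (SE 0.31, adjusted p = 0.00138 in edgeR's quasi-likelihood test). The knockout mean was 10.9% of the heterozygote mean and 5.69% of the Cre-negative mean. The heterozygote mean was 52.2% of the Cre-negative mean. Counts remained in every knockout library, above the 3 counts taken as the floor. The labels do not name the floxed exons, so these counts may include transcript outside the deleted segment.

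Tmod3 (ENSMUSG00000058587.9, chr9:75497707-75559657, GRCm38) encodes tropomodulin 3, which caps the pointed ends of actin filaments and binds tropomyosin there. The knockout libraries held 220.5, 217, 214 and 258 CPM, and the heterozygote libraries 119, 116, 121 and 114 CPM. The groups did not overlap, and the lowest knockout library stood far above the highest heterozygote library. Tmod3 rose by 0.95 on the log2 scale (SE 0.07, adjusted p = 0.000143 in edgeR's quasi-likelihood test), a fold of 1.94 with a 95% interval from 1.74 to 2.16. The Cre-negative libraries held 224, 194, 230 and 227 CPM, within or near the range of the knockout libraries. The heterozygote was thus the group apart, with a mean at 53.7% of the Cre-negative mean, while the knockout mean was 104% of it.

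**Figure D2:**
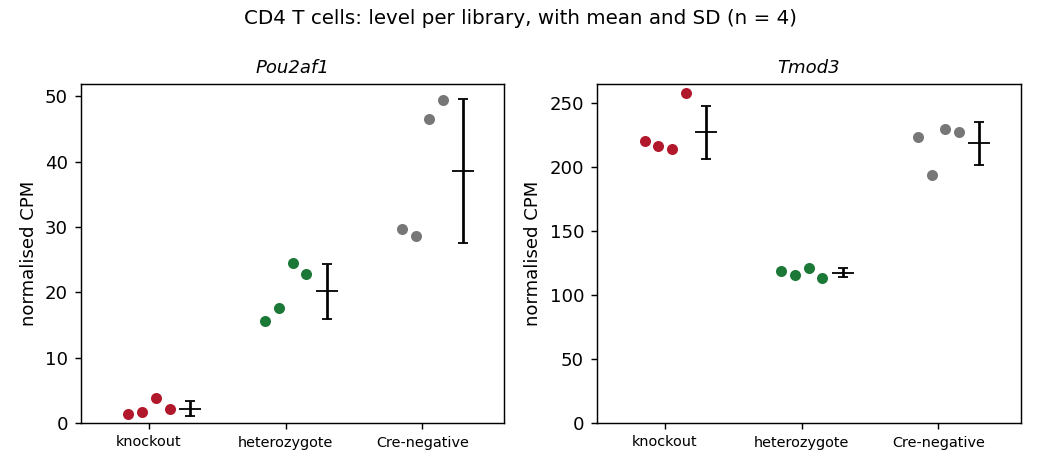
Normalised CPM of Pou2af1 (left) and Tmod3 (right) in each CD4 library, with points for libraries and black bars for mean and SD of 4 libraries per group. Pou2af1 steps up from knockout to heterozygote to Cre-negative, whereas Tmod3 is at 114 to 121 CPM in the heterozygote and at 194 CPM or more in every other library.

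Both called genes lie on chromosome 9, 24.3 Mb apart. Within 10 Mb of Pou2af1 a further 152 genes were tested, and 0 were called, with a median log2 change of 0.02 and 7 genes at an unadjusted p under 0.05. Around Tmod3 the same window held 91 other tested genes, again with 0 called and a median of 0.01. Of these 91 genes, 4 were at an unadjusted p under 0.05. Over all tested genes 465 of 12719, or 3.66%, were at that threshold. The other 706 tested genes of chromosome 9 had a median of -0.00. The nearest well-expressed neighbours of Tmod3 were Leo1, a subunit of the transcription elongation complex PAF1, at -0.09 (SE 0.06), and Mapk6, an atypical MAP kinase, at -0.08 (SE 0.16). Neither Leo1 nor Mapk6 was called. Near Pou2af1, Sik2 was at 0.09 (SE 0.07) and was not called.

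The transcript 2010007H06Rik starts 38.4 kb beyond the end of Pou2af1. The knockout libraries held 4.49, 6.61, 13.7 and 12.6 CPM, the heterozygote libraries 3.82, 3.01, 4.92 and 5.88 CPM, and the Cre-negative libraries 0.474, 0.778, 1.58 and 1.09 CPM. Both Cre-carrying groups lay above every Cre-negative library, and knockout and heterozygote overlapped. The difference of knockout and heterozygote was 1.09 on the log2 scale (SE 0.37) and was not called in edgeR's quasi-likelihood test (adjusted p = 1.00). With sex and replicate set as covariates, a fit that called 7 genes (0.055%), it was 1.12 with an edgeR adjusted p of 0.0128.

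The partner genes of Pou2af1 gave small values. Pou2f2, which encodes an octamer factor, held 123, 121, 159 and 168 CPM in the knockout and 115, 106, 130 and 135 CPM in the heterozygote. In both genotypes replicates 3 and 4 were higher than replicates 1 and 2, and the groups overlapped. Its log2 difference was 0.23 (SE 0.11) and that of Pou2f1, the widely expressed octamer factor, was 0.05 (SE 0.08), and neither was called. All 6 tested genes of the list of Pou2af1 partners and turnover factors lay above 0, with a median of 0.04.

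Octamer DNA is the sequence to which POU2AF1 is recruited, so promoters holding it were examined. The letters ATGCAAAT, on either strand, were searched in the 250 bases before each gene start in the RefSeq promoter table for GRCm38.p6. They occurred in 526 of 32851 promoters, or 1.60%. The table held only 9187 of the 12719 tested genes, or 72.2%, by symbol, which is under the 80% set for such a check, so it is void as a statement on octamer genes as a whole. Among the matched genes 143 held the octamer, 0 of them were called, and their median log2 change was 0.01, against 0.01 for all matched genes. The promoters below belong to the 3 octamer genes of lowest p with at least 10 CPM, and show where the octamer (capitals) sits. Ndufs4 holds it in reverse.
Chd6: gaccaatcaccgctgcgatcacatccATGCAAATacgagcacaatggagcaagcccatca
Ndufs4: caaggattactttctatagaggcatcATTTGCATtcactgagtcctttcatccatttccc
Egln2: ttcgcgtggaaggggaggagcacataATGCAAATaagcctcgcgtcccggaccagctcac
They are at chr2:161109196-161109255, chr13:114388227-114388286 and chr7:27166883-27166942, all on the minus strand.

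Chd6, a chromatin remodeller, held 44.5, 52.6, 49.6 and 46.1 CPM in the knockout and 40.0, 42.7, 38.8 and 41.4 CPM in the heterozygote. The groups did not overlap, with a log2 difference of 0.24 (SE 0.08). Ndufs4, a subunit of respiratory complex I, was at 0.12 (SE 0.05), and Egln2, an oxygen-dependent prolyl hydroxylase, was at 0.20 (SE 0.09). None of the 3 genes was called in edgeR's quasi-likelihood test (adjusted p = 1.00 each). Pou2af1 itself has the 7 letters TGCAAAT 231 bases before its RefSeq start, which is not the gene start given above, letters that 3.56% of all promoters hold within the same 250 bases. The stretch is at chr9:51213440-51213559 on the plus strand.
Pou2af1: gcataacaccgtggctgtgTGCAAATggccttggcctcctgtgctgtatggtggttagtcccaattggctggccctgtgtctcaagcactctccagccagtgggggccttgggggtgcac

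Groups did not overlap in 358 of 12719 tested genes (2.81%), 178 higher (1.4%) and 180 lower (1.42%) in the knockout. For groups of this size complete separation gives the smallest p of an exact permutation test, 0.0286. The share of 2.81% lay near that value, and separation by itself is not taken as evidence of a difference. That value assumes libraries that could be swapped freely, which the split into replicate sets makes doubtful. The share that chance gives in these libraries was not estimated. The 11 genes of lowest p each way among those with at least 1 CPM are described next, and none was called (edgeR adjusted p = 1.00 each). Their log2 differences ran from 0.20 to 0.97 above 0 and from -1.15 to -0.20 below 0, with SEs of 0.04 to 0.32. In 20 of these 22 genes the knockout mean was nearer to the Cre-negative mean than the heterozygote mean was. The genes were picked for a difference between knockout and heterozygote in either direction. All 22 were measured in the same libraries, and the count was not tested.

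Among the higher genes Spry1, an inhibitor of receptor tyrosine kinase signalling, held 78.1, 89.4, 92.0 and 81.8 CPM in the knockout and 66.4, 66.8, 76.4 and 67.0 CPM in the heterozygote. The third heterozygote library came closest to the knockout, without reaching it. Its log2 difference was 0.30 (SE 0.07). Bckdk, the kinase that switches off the breakdown of branched-chain amino acids, held 20.1, 20.4, 23.7 and 17.9 CPM against 15.3, 15.3, 14.1 and 14.0 CPM. All 4 knockout libraries were above all heterozygote libraries, with a difference of 0.48 (SE 0.11), and the Cre-negative mean was 19.6 CPM. Ctps2, a CTP synthase, held 48.6, 49.2, 59.5 and 47.8 CPM against 38.8, 36.3, 40.2 and 41.6 CPM, a difference of 0.39 (SE 0.09), and averaged 50.2 CPM in Cre-negative cells. For Ctps2 the third knockout library stood above the other knockout libraries.

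Cdkn1b, which encodes the cell cycle inhibitor p27, held 122, 121.5, 124.5 and 129 CPM in the knockout and 100.2, 104, 107 and 115 CPM in the heterozygote. The groups were separate by a narrow margin, with a difference of 0.22 (SE 0.05). Prim1, the catalytic subunit of DNA primase, was at 0.20 (SE 0.05), Add3, an adducin that links spectrin to actin and caps barbed ends, at 0.20 (SE 0.05), and Ccni at 0.22 (SE 0.05). Plekha5 was at 0.34 (SE 0.08), Wdr11 at 0.43 (SE 0.11), Narf at 0.34 (SE 0.09) and Zfp11, at a mean of only 3.21 CPM in the knockout, at 0.97 (SE 0.25).

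Cdkn1a, which encodes the p53 target and cell cycle inhibitor p21, was among the lower genes. It held 134, 114, 102 and 130.5 CPM in the knockout, 153, 160.3, 163 and 178 CPM in the heterozygote, and 99.7, 105, 89.8 and 119.9 CPM in Cre-negative cells. The heterozygote libraries were the highest in every case, and the knockout and Cre-negative libraries overlapped. The difference of knockout and heterozygote was -0.45 (SE 0.10). Utp4, a component of the small-subunit processome that matures ribosomal RNA, held 185, 182, 174 and 173 CPM against 212, 203, 202 and 201 CPM. The groups were separate, with a difference of -0.20 (SE 0.04), and with DESeq2, which called 3 genes (0.0236%), Utp4 was one of them (adjusted p = 0.0277). H2-T10, a nonclassical MHC class I gene, was at -0.35 (SE 0.09), Slc39a14, a zinc transporter, at -0.27 (SE 0.08) and Atp10d, a phospholipid flippase subunit, at -0.27 (SE 0.08).

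The other lower genes were weakly expressed. Nts, the neurotensin precursor, averaged 1.263 CPM in the knockout and 2.62 CPM in the heterozygote, and Bsn, a presynaptic scaffold, 1.87 and 3.87 CPM. Slc52a3, a riboflavin transporter, averaged 0.873 and 1.63 CPM, and Adm, the adrenomedullin precursor, 0.701 and 1.53 CPM. Maats1 averaged 0.841 and 1.89 CPM and Vmn2r96 3.74 and 5.77 CPM.

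**Figure D3:**
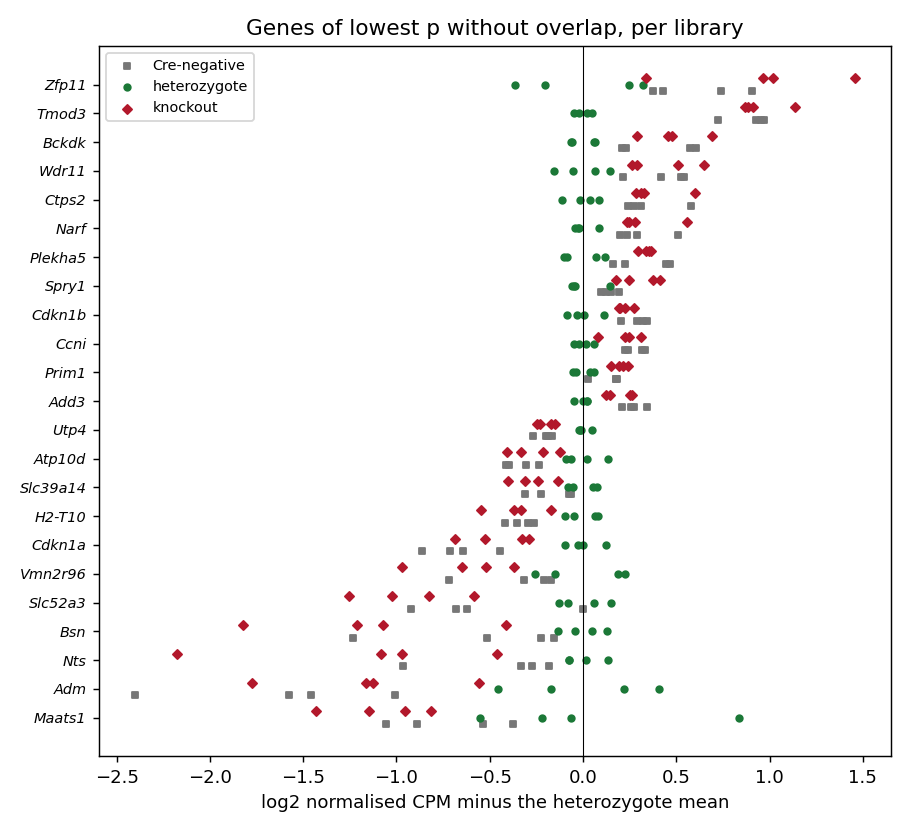
Log2 normalised CPM of each CD4 library minus the heterozygote mean, for the genes of lowest p whose knockout and heterozygote libraries did not overlap (Pou2af1 is left out). Diamonds are knockout, circles heterozygote and squares Cre-negative libraries, 4 each; only Tmod3 among them was called, and for most genes the squares lie with the diamonds.

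No actin-binding relative of Tmod3 was called. Of 12 tested tropomodulins and barbed-end cappers, Tmod3 alone was called, 5 lay above 0 and 7 below, and the median was -0.00. Tmod1, the red cell and muscle tropomodulin, was at -0.24 (SE 0.20) and Add1 at 0.18 (SE 0.07). The 3 tested tropomyosins ran from -0.01 to 0.01 and the 23 tested genes of Arp2/3 and actin nucleation had a median of 0.01, with 0 called.

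Among genes reported by other work as POU2AF1 targets in T cells, 8 of 11 tested lay below 0, the median was -0.15 and 0 were called. The direction was not that of both replicate sets, since the median was 0.03 in replicates 1 and 2 alone and -0.24 in replicates 3 and 4 alone. Without the first knockout library it was -0.03 and without knockout replicate 3 it was -0.09. Without heterozygote replicate 1 it was -0.29 and without heterozygote replicate 3 it was -0.09. Against Cre-negative cells the list median was 0.04 for the knockout and 0.23 for the heterozygote. Ifng, the main type 1 helper cytokine, held 2.17, 5.77, 1.67 and 2.09 CPM in the knockout and 5.46, 7.29, 5.43 and 4.81 CPM in the heterozygote. The second knockout library lay inside the heterozygote range and the others below it. The log2 difference of Ifng was -0.97 (SE 0.41), and the Cre-negative mean was 1.95 CPM. Btla, an inhibitory receptor, was at 0.25 (SE 0.10), Icos, a costimulatory receptor, averaged 276 CPM in the knockout and 254 CPM in the heterozygote, and Il2 averaged 153 and 176 CPM.

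In the type 1 helper list 13 of 14 tested genes lay below 0, with a median of -0.27 in all replicates, -0.22 in replicates 1 and 2 alone and -0.38 in replicates 3 and 4 alone. Tbx21, the transcription factor that directs the type 1 fate, held 66.5, 94.96, 54.1 and 63.8 CPM in the knockout and 87.3, 103, 91.3 and 87.2 CPM in the heterozygote. The second knockout library again overlapped the heterozygote, and the difference was -0.40 (SE 0.18). In the list of cytotoxic effectors 9 of 11 lay below 0, with a median of -0.30. In replicates 1 and 2 alone that median was -0.02, with 6 below and 5 above 0, and in replicates 3 and 4 alone it was -0.75. It was -0.46 without knockout replicate 2, -0.05 without replicate 3 and -0.14 without replicate 4. Prf1, the pore-forming protein perforin, was at -0.96 (SE 0.41) from means of 1.63 and 3.19 CPM, and Gzmb, a granule protease, was at -0.59 (SE 0.40). Of the 8 tested helper cytokines 6 lay below 0, with a median of -0.30, which was -0.03 in replicates 1 and 2 alone, -0.49 in replicates 3 and 4 alone and -0.16 without the third knockout library. The 8 tested type 2 helper genes had a median of -0.03 in all replicates and 0.11 in replicates 1 and 2 alone. The 8 tested type 17 helper genes had a median of 0.14, with 5 above 0, and of 0.04 without the first knockout library. NK cell markers summed to 0.334 to 2.13 CPM in the knockout and 0.587 to 1.52 CPM in the heterozygote, and their part in these values was not tested. Against Cre-negative cells the type 1 helper median was 0.00 for the knockout and 0.33 for the heterozygote. The same values were 0.06 and 0.31 for cytotoxic effectors, and 0.07 and 0.35 for helper cytokines.

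Interferon-induced genes lay on 1 side: 32 of 34 tested members were below 0, with a median of -0.20, against 6030 of 12719 for all genes. Usp18, which restrains interferon receptor signalling, held 147, 125, 68.0 and 147 CPM in the knockout and 109, 192, 205 and 167 CPM in the heterozygote. The first heterozygote library was below 3 of the 4 knockout libraries, so the groups overlapped, and the difference was -0.47 (SE 0.27). Oasl1 was at -0.73 (SE 0.37) and Bst2, also known as tetherin, at -0.32 (SE 0.18). In replicates 1 and 2 alone the median of the list was -0.04 and in replicates 3 and 4 alone it was -0.36. Without 1 library it ran from -0.41, without the fourth knockout library, to -0.08, without the third heterozygote library. In CD8 T cells the same list had a median of 1.11 for knockout minus heterozygote, the opposite sign. Of the 34 genes 0 were called in CD4 cells, and 0 in CD8 cells, where only Tmod3 and Pou2af1 were called. How far the CD8 median rested on single libraries was not tested. Against Cre-negative cells the CD4 list median was 0.31 for the knockout and 0.51 for the heterozygote.

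Among p53 targets 19 of 21 tested genes lay below 0, with a median of -0.15 in all replicates, -0.08 in replicates 1 and 2 alone and -0.17 in replicates 3 and 4 alone. Besides Cdkn1a, Gtse1, a regulator of p53 in the G2 phase, was at -0.22 (SE 0.07), Tnfrsf10b, a death receptor, at -0.29 (SE 0.10) and Mdm2, the ubiquitin ligase of p53, at -0.15 (SE 0.07). Immediate early factors lay below 0 in 16 of 20 cases, with a median of -0.13 in all replicates, -0.03 in replicates 1 and 2 alone, -0.28 in replicates 3 and 4 alone and -0.06 without the third knockout library. Fosl1 was at -0.40 (SE 0.15). The small-subunit processome lay below 0 in 24 of 30 cases, but by little, with a median of -0.04, and Dcaf13 was at -0.14 (SE 0.06). Among heat shock genes 9 of 11 lay below 0, with a median of -0.11, which was -0.04 in replicates 3 and 4 alone and -0.05 without the second knockout library. Hsph1, a cochaperone of HSP70, was at -0.27 (SE 0.09). Set against Cre-negative cells, the p53 target median was 0.07 for the knockout and 0.23 for the heterozygote.

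Other groups lay on the higher side or around 0. Of 7 tested genes of the mitochondrial genome 6 lay above 0, with a median of 0.11. mt-Cytb, a subunit of complex III, was at 0.17 (SE 0.06), and the share of all counts in mitochondrial genes was 2.88% to 3.28% in the knockout and 2.75% to 3.06% in the heterozygote. The 28 genes of the T cell receptor complex and its proximal signalling had a median of 0.04 and the 31 cell cycle genes a median of 0.04, with 0 called in either. The cell cycle median was -0.04 in replicates 1 and 2 alone, with 24 below 0, 0.11 in replicates 3 and 4 alone, with 29 above 0, and -0.00 without the third knockout library. The 14 regulatory T cell genes had a median of 0.07 and the 10 follicular helper genes, which include Pou2af1, a median of 0.08, values that were 0.00 and 0.04 in replicates 3 and 4 alone and 0.01 and 0.03 without the third knockout library. Bcl6, the follicular helper factor, averaged 10.5 CPM in the knockout and 10.9 CPM in the heterozygote. B cell markers lay above 0 in 9 of 10 cases, with a median of 0.22. In replicates 1 and 2 alone their median was -0.19, with 7 below and 2 above 0, and in replicates 3 and 4 alone it was 0.59. Across all 31 lists of pathways and cell states the called genes were Tmod3 and Pou2af1 and no others.

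**Figure D4:**
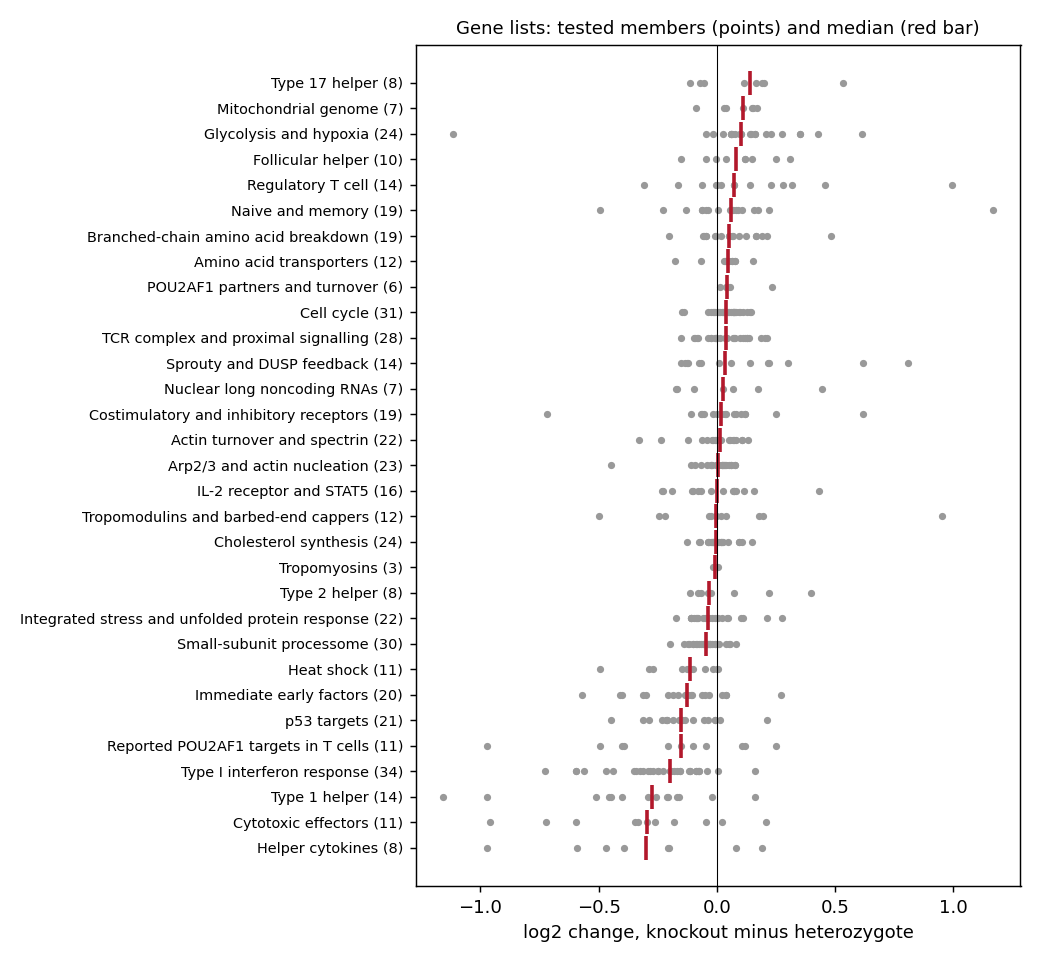
Log2 change, knockout minus heterozygote, of the tested members of 31 gene lists (grey points), with the median of each list as a red bar and the number tested in brackets. Pou2af1 at -3.19 is a follicular helper member beyond the axis; the lowest medians are those of helper cytokines, cytotoxic effectors and type 1 helper genes, at -0.30, -0.30 and -0.27.

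Several transcripts besides 2010007H06Rik set both Cre-carrying groups apart from Cre-negative cells, and 4 of them belong to pairs of copied genes. Rps3a1, a ribosomal protein gene, averaged 268 CPM in the knockout, 257 CPM in the heterozygote and 514 CPM in Cre-negative cells. Its near-identical copy Rps3a3 averaged 199, 187 and 2.25 CPM. Tpm3 averaged 179, 178 and 264 CPM, and its copy Tpm3-rs7 averaged 78.1, 76.8 and 6.23 CPM. Reads that fit both copies equally were not counted, so the split between the copies of each pair is uncertain. The difference of knockout and heterozygote was 0.06 for Rps3a1, 0.09 for Rps3a3, 0.01 for Tpm3 and 0.02 for Tpm3-rs7, and none was called. The predicted genes of the same kind differed by more without a call: Gm38326 averaged 7.08 CPM in the knockout and 8.15 CPM in the heterozygote, Gm33707 2.22 and 1.67 CPM, and Gm8778 1.32 and 1.01 CPM.

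The same contrast was set beside CD8 T cells. In CD8 libraries 2 of 12612 tested genes were called (0.0159%), Tmod3 and Pou2af1. Tmod3 averaged 219 ± 16.6 CPM in the CD8 knockout and 107 ± 6.22 CPM in the CD8 heterozygote (SD, n = 4), a log2 change of 1.03 against 0.95 in CD4 cells. Pou2af1 averaged 1.71 ± 0.757 and 15.5 ± 1.34 CPM (SD, n = 4), a log2 change of -3.16 against -3.19. The difference of the 2 cell types was -0.07 for Tmod3, with a 95% interval from -0.29 to 0.14, and -0.02 for Pou2af1, with an interval from -0.98 to 0.93. Tested on the interaction over all 24 libraries, 0 of 13288 genes differed between the cell types with edgeR's quasi-likelihood test (0.0%). There were 693 (5.22%) at an unadjusted p under 0.05, and DESeq2 called 0. The labels do not say whether CD4 and CD8 libraries of one number come from the same animal. Within each genotype, libraries of one number were of the same sex in both cell types. The test treated them as independent, so the CD8 values may not be a separate set of animals.

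The replicate sets were compared because they separated on the first principal component, a comparison added after that was seen. In replicates 1 and 2 alone 2 genes were called (0.0158%), and in replicates 3 and 4 alone 13 genes (0.101%), Tmod3 and Pou2af1 each time. Across 12378 genes tested in both sets, 48.1% had the same sign of change. The change of knockout against heterozygote differed between the sets in 2 genes, Bnip3 and Nefh (0.0157%), by edgeR's interaction test. With the replicate number as a block, 162 genes (1.27%) differed, 43 with a higher (0.338%) and 119 with a lower (0.936%) difference in replicates 3 and 4. Without the block the count of the main fit, 2 with all libraries, depended on single ones. It was 486 without the fourth knockout library and 14 without the first.

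Bnip3, a hypoxia-induced protein of mitophagy, held 12.5, 11.9, 93.8 and 91.9 CPM in the knockout, 16.2, 16.5, 54.3 and 50.7 CPM in the heterozygote, and 8.59, 7.07, 109 and 101 CPM in Cre-negative cells. In every group the second set lay above the first, in the heterozygote by the least. The difference between sets was 1.24 (SE 0.13, adjusted p = 0.00374 in edgeR's quasi-likelihood test). Nefh, a neurofilament subunit, held 32.8, 37.5, 86.8 and 84.1 CPM in the knockout and 55.5, 50.5, 57.5 and 52.3 CPM in the heterozygote. The heterozygote libraries were level, and the knockout libraries lay below them in the first set and above them in the second. Its difference between sets was 1.23 (SE 0.12, edgeR adjusted p = 0.00374), and the Cre-negative libraries held 33.8, 34.5, 81.4 and 75.1 CPM.

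With the block, under which 1.27% of all tested genes differed, 4 lists held most of the listed genes that differed between sets. Without the block the main fit called only Bnip3 and Nefh. Other fits without the block called up to 585 genes, and leaving out 1 library gave 2 to 486. The counts below thus depend on the fit, and are those of the fit that paired libraries by number. Libraries of different numbers within a set correlated as well, so that pairing is uncertain. Of 12 amino acid transporters 7 differed, each lower in replicates 3 and 4. Slc7a5, the large neutral amino acid transporter, held 362, 422, 198 and 231 CPM in the knockout and 286, 341, 278 and 276 CPM in the heterozygote. The knockout libraries lay above the heterozygote in the first set and below it in the second, by a difference of -0.70 with the block (edgeR adjusted p = 0.0100). Slc6a9, a glycine transporter, lay in the same order, with 42.7, 63.4, 16.6 and 21.5 CPM against 23.6, 38.0, 33.8 and 34.5 CPM. Of 22 genes of the integrated stress and unfolded protein response 10 differed, each lower in replicates 3 and 4. Asns, asparagine synthetase and a target of the stress factor ATF4, held 175, 200.5, 57.1 and 111 CPM in the knockout and 110, 161, 138 and 169 CPM in the heterozygote.

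Cholesterol synthesis went the other way: with the block 7 of 24 genes differed, each higher in replicates 3 and 4. Hmgcs1, an early enzyme of the pathway, held 269, 219.9, 537 and 517 CPM in the knockout and 332, 310, 400.2 and 404 CPM in the heterozygote. The Cre-negative libraries, at 243, 208, 557 and 504 CPM, followed the knockout. Among glycolysis and hypoxia genes 5 of 24 differed with the block, each higher in replicates 3 and 4. Pdk1, which restrains the entry of pyruvate into mitochondria, held 170, 161, 376 and 366 CPM against 188, 174, 274 and 278 CPM. In these genes the second set stood apart from the first in the knockout and Cre-negative libraries by more than in the heterozygote. The heterozygote females were both in the first set, as was the only knockout female, and the part of sex in these values was not tested.

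**Figure D5:**
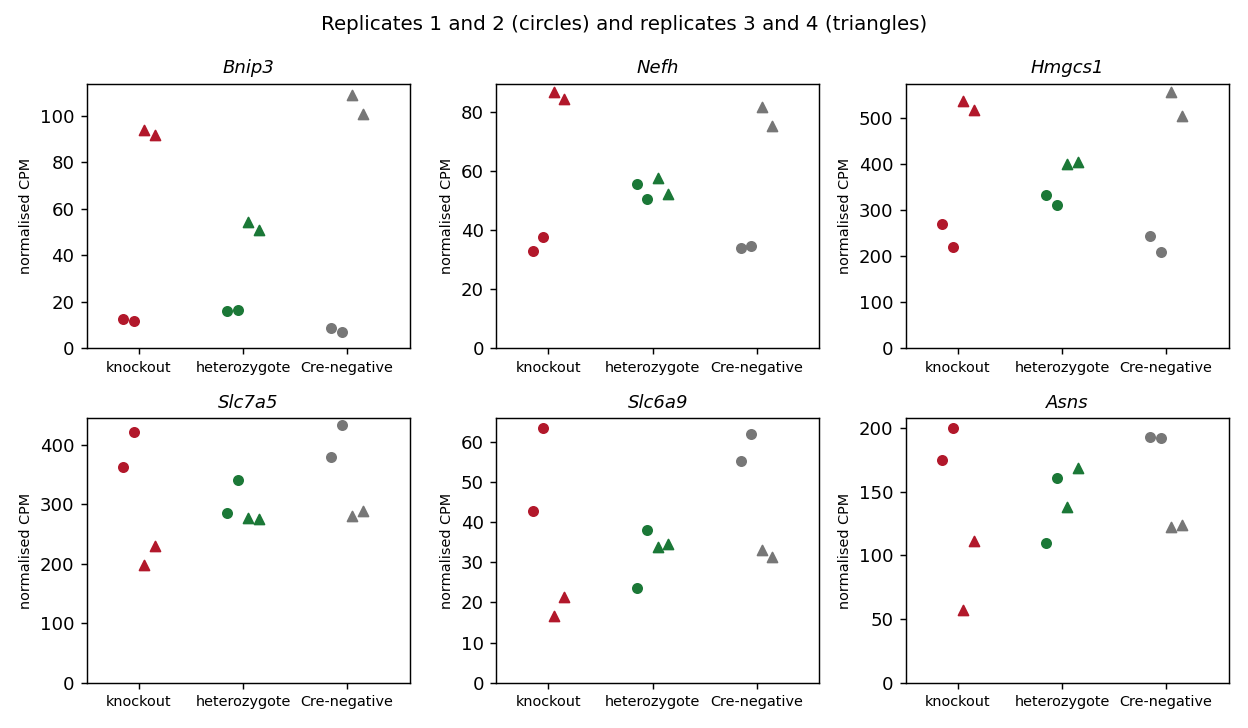
Normalised CPM of 6 genes in each CD4 library by genotype, with circles for replicates 1 and 2 and triangles for replicates 3 and 4. Knockout and Cre-negative libraries are spread apart by set, as for Bnip3 at 12.5 and 11.9 against 93.8 and 91.9 CPM in the knockout, and the heterozygote libraries less so.

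The precision of the comparison set what could be seen. In the main fit, which used no replicate block, the 95% interval of a log2 change reached 0.27 to either side in the median gene. For 87.1% of tested genes the interval lay inside a 2-fold change either way. For 69.3% it lay inside a 1.5-fold change. In data simulated for this comparison on 12572 tested genes, 94% of genes changed 4-fold were called, 70% of those changed 2-fold, 40% of those changed 1.5-fold and 10% of those changed 1.25-fold. Of 112 calls in those data 5 were false. The simulation changed 50 genes at each fold and drew the libraries independently, without the split into replicate sets. With that many changed genes the adjusted threshold is easier to pass than in the real comparison, which called 2 genes. The shares called may thus be too high for these data.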

How the data were processed

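The values used are the whole-number counts per gene that the authors deposited for 55401 genes. Per the submitters' processing notes, Trimmomatic 0.35, STAR 2.7.1a, DESeq2 1.26.0 and the build GRCm38 were used. The sources used here do not give the annotation release or the strand setting, so genes that overlap, antisense ones included, may share reads. The 4 summary lines, 32.2% to 33.5% of entries in the 8 libraries, were left out of library sizes and tests, and reads with several matches (17.7% to 18.4%) count towards no gene. The normalized signal table that the authors deposited equals the counts over a library factor of 0.840 to 1.56 and was not used for tests. No column of samples was left unused.

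The fit used edgeR 4.0.16 in R 4.3.3: filterByExpr (minimum count 10), TMM scaling and the 2-sided quasi-likelihood F test over the 12 CD4 libraries (9 residual degrees of freedom), contrast knockout minus heterozygote, with Benjamini-Hochberg adjustment over all tested genes. The test was tested on simulated data. Values are TMM-normalised CPM with the SD of 4 libraries. The SE of a log2 change comes from the F statistic. A floor of 3 counts was 0.181 to 0.251 CPM per library and covers counting error only. Replicates were checked for duplicates (the chi-square of the closest of 12 pairs was 2.62 per degree of freedom).

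The named genes are Pou2af1, every called gene, the 12 genes of lowest p each way with no overlap and at least 1 CPM on average (without Gm, Rik and receptor segment genes), the genes set apart in Cre carriers, and list members of lowest p or needed for a role. The members and lists were chosen with earlier results of these data known. Same-numbered knockout and heterozygote libraries deviated together (correlations 0.218, 0.510, 0.294 and 0.369). By the rule of 0.1 the replicate number was therefore fitted as a block, but only in alternative fits. The main fit used no block, and it gave the SEs and adjusted p-values unless said otherwise. Other pairs within replicates 1 and 2, or 3 and 4, correlated as well. Alternatives were RLE scaling, no filter, DESeq2 1.42.0, replicate block, sex and replicate set (1 and 2, or 3 and 4) as covariates, each set alone, 8 or 24 libraries, and leaving out each library.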

Additional observations from a re-analysis of the deposited data

Results flagged for a closer look

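In 15 of 158 group and gene combinations 1 library lay far from the other 3, where chance alone gives about 1 in 20 such groups. Tmod3 was at 258 CPM in knockout replicate 4 and at 214 to 220.5 CPM in the other knockout libraries. Spry1 was at 76.4 CPM in heterozygote replicate 3 and at 66.4 to 67.0 CPM in the other heterozygote libraries. Ctps2 was at 59.5 CPM in knockout replicate 3 and at 47.8 to 49.2 CPM in the other knockout libraries. Narf was at 48.0 CPM in knockout replicate 3 and at 38.4 to 39.6 CPM in the other knockout libraries. Narf was at 34.6 CPM in heterozygote replicate 4 and at 31.7 to 32.2 CPM in the other heterozygote libraries. Utp4 was at 212 CPM in heterozygote replicate 1 and at 201 to 203 CPM in the other heterozygote libraries. Rps3a3 was at 189.8 CPM in knockout replicate 3 and at 201 to 203 CPM in the other knockout libraries. Gm33707 was at 1.41 CPM in heterozygote replicate 2 and at 1.74 to 1.76 CPM in the other heterozygote libraries. Ehd4 was at 64.5 CPM in heterozygote replicate 3 and at 69.5 to 70.3 CPM in the other heterozygote libraries. Ifng was at 5.77 CPM in knockout replicate 2 and at 1.67 to 2.17 CPM in the other knockout libraries. Bcl6 was at 13.3 CPM in knockout replicate 2 and at 9.32 to 9.93 CPM in the other knockout libraries. Prf1 was at 3.19 CPM in knockout replicate 2 and at 0.918 to 1.23 CPM in the other knockout libraries. Nr4a3 was at 778 CPM in knockout replicate 3 and at 970.0 to 997 CPM in the other knockout libraries. Nr4a3 was at 1074 CPM in heterozygote replicate 3 and at 1004 to 1004 CPM in the other heterozygote libraries. Ppm1k was at 81.9 CPM in heterozygote replicate 4 and at 72.4 to 74.0 CPM in the other heterozygote libraries.

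The change of Bnip3 between knockout and heterozygote differed between replicates 3 and 4 and replicates 1 and 2 by 1.24 on the log2 scale (SE 0.13, adjusted p = 0.00374 in edgeR's quasi-likelihood test). The change of Nefh between knockout and heterozygote differed between replicates 3 and 4 and replicates 1 and 2 by 1.23 on the log2 scale (SE 0.12, adjusted p = 0.00374 in edgeR's quasi-likelihood test).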

How the results depend on the processing

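Tmod3 and Pou2af1 were called under all 19 alternatives, among them the replicate block, with log2 changes of 0.89 to 1.00 and of -3.60 to -3.00. Leaving out 1 library at a time gave 0.89 to 0.98 and -3.60 to -3.00. The number of called genes stayed at 2 with the replicate block (955 at an unadjusted p under 0.05, against 465) and without any 1 library (2 to 2), was 3 with DESeq2, and rose to 7 with sex and replicate set as covariates and to 13 in replicates 3 and 4 only. The cause was not tested. Beyond the 2 genes, DESeq2 called Utp4, the 2 covariates called 2010007H06Rik, Tnfsf4, Slc4a11, Igfbp7 and Ulbp1, and replicates 3 and 4 alone called Il12rb2, Bnip3, Nefh, Fgf2, Ly6a, Ly6c1, St6gal1, Bend4, Arrb1, Enc1 and Gpr132, names chosen after their values were seen. The difference between CD4 and CD8 gave 0 calls in all alternatives, and its value for Pou2af1 ran from -0.44 to 0.17 when 1 library was left out. The difference between the replicate sets gave 2 calls in the main fit and 162 with the replicate block. Without the block it gave 190 with DESeq2, 585 without a filter on low counts and 2 to 486 when 1 library was left out. Of 78 named genes 73 kept their direction throughout. In replicates 1 and 2 alone Tpm3 was at -0.10, Tpm3-rs7 at -0.0322, Il2 at 0.0298, Bcl6 at 0.11 and Csf2 at 0.17. Without 1 library Tpm3 ran from -0.0469 to 0.0403, Tpm3-rs7 from -0.0122 to 0.0580 and Bcl6 from -0.18 to 0.0259. Of 589 list medians, from 31 lists under 19 alternatives, 31 moved by more than the spread of the libraries. Of the 31 lists, 17 moved in at least 1 alternative. Depth limits weakly expressed genes: Pou2af1 rests on 18 to 52 counts per knockout library.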
